A study of Mus musculus with 6 samples.

Results

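Epyc and Clec3a chondrocytes were the callus cells that passed a gate for cartilage genes and held more UMIs of Epyc and Clec3a than of Sfrp5, Fam180a and Sbsn, 3 genes that mark other callus chondrocytes. A UMI is a molecular tag that marks 1 captured transcript. Barcodes were kept with at least 5000 UMIs and at most 10% mitochondrial UMIs. In them Ucma, Cnmd, Matn3 and Scrg1 together took at least 0.2% of UMIs, Ihh had fewer than 3 UMIs, and Ptprc, a gene of blood cells, and Cdh5, a gene of endothelial cells, had at most 1 UMI each. These limits left 1759 gated chondrocytes, of which 424 were Epyc and Clec3a chondrocytes and 1335 the remaining chondrocytes, out of 46944 barcodes in all. The cells were chosen by their own values of these genes, so the levels of the genes of the rule are a description of the choice.

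Epyc encodes epiphycan, a small leucine-rich proteoglycan of growth plate cartilage. Clec3a encodes a secreted C-type lectin of cartilage. A fracture callus heals by endochondral ossification: chondrocytes divide and lay down a matrix of type II collagen and aggrecan, then enlarge, switch on Ihh and Col10a1, and give way to bone. Piezo1 is a mechanically gated cation channel.

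Calluses of fractured femurs were taken at 14 days post-fracture (dpf) and read as 3′ single-cell RNA libraries, 3 per group. The control libraries carry the genotype label wt and are called Piezo1 f/f in the study. The knockout-labelled libraries carry the genotype label Col2CreERT; Piezo3-/-, whereas the design text and the study name Piezo1 (Piezo1Col2a1). By the study's methods the mice were male, 12 weeks old, and all received tamoxifen at 75 mg/kg on 5 days in a row from day 5, which activates a Cre recombinase that the Col2a1 promoter drives, so deletion was directed to cells that had used that promoter. The libraries held between 57626530 and 103784364 UMIs in between 3482 and 11447 barcodes, and n below counts libraries. Nothing in the labels says that the libraries came from separate mice, so a p-value measures the spread between libraries.

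The libraries differed in ways that touch every result. Knockout-labelled replicate 2 held no gated chondrocyte among 6096 barcodes of the depth gate, which allows a share of up to 0.0492%, so gene levels were compared by genotype label between 3 control libraries and 2 knockout-labelled ones. Control replicate 3 held 12 Epyc and Clec3a chondrocytes with 104209 UMIs in all, and 1 UMI there read about 9.66 counts per 1000000 UMIs (CPM). The other libraries held 67, 191, 41 and 113 cells (control replicates 1 and 2, knockout-labelled replicates 1 and 3). Knockout-labelled replicate 3 had Xist, an RNA of the inactive X chromosome, at 544 CPM and the Y-linked gene Ddx3y at 0 in these cells, while in the other 4 libraries Xist read at most 0.483 CPM and Ddx3y at least 48.3 CPM. That library goes against the stated sex, and the genotype calls are given with and without it. Pairs of libraries shared between 4 and 36 barcodes.

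Epyc lies on chromosome 10 (97644068 to 97682454, plus strand, GRCm38) and Clec3a on chromosome 8 (114418086 to 114425846, plus strand). RefSeq (GRCm38.p6) gives 2 starts of Epyc. The 250 bases before each are shown because Epyc, a gene of the rule, had the largest ratio to the remaining chondrocytes. SOX9, the factor that directs chondrocyte fate, binds around the letters ACAATG or ACAAAG, and capitals mark these letters read on either strand (CATTGT and CTTTGT on the other).
Epyc, first start, chr10:97643818-97644067, plus strand: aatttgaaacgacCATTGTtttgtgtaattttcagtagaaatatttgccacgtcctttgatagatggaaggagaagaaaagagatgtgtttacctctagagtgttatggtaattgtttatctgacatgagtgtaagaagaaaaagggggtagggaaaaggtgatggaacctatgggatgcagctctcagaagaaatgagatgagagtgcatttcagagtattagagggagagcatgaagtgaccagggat
Epyc, second start, chr10:97646853-97647102, plus strand: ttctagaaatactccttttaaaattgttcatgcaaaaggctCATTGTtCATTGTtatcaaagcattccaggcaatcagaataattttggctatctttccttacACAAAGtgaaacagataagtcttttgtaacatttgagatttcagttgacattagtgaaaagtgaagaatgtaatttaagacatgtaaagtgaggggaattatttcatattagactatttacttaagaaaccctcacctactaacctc
The first stretch held 1 such word and the second held 3, of which 2 are separated by a single base. Of 32851 RefSeq stretches of this length, 25.2% held at least 1 word and 0.493% held 3 or more. The stretches before Matn1, Mia, Cnmd and Matn3 held 0. A match of letters is a description and not a measured binding site.

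Epyc and Clec3a chose the cells, so their levels describe the class and are no support for its identity. Epyc read 275, 552 and 338 CPM in the controls and 244 and 503 CPM in the knockout-labelled libraries, a mean of 383 ± 138 CPM (SD, n = 5). In the remaining chondrocytes it read 24.9 to 59.6 CPM, so the classes did not overlap, and control replicate 2 and knockout-labelled replicate 3 were the high libraries. Clec3a read 99.8, 149.7 and 106 CPM in the controls and 97.9 and 215 CPM in the knockout-labelled libraries, against 46.1 to 110.1 CPM in the remaining chondrocytes. Each library had more Clec3a in the Epyc and Clec3a cells than in the remaining ones, but the ranges over libraries overlapped. In blood cells, taken as barcodes with 3 or more Ptprc UMIs and used as a measure of free RNA, Epyc read 0.453 to 10.3 CPM and Clec3a 0.634 to 8.22 CPM in these libraries.

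The cells carried a chondrocyte profile in every library that held them, read from cartilage genes outside the rule. Col2a1, the main collagen of cartilage, read 76425, 81738 and 73535 CPM in the controls and 82174 and 73706 CPM in the knockout-labelled libraries, against 471 to 6065 CPM in the blood cells. Sox9 read 528 to 998 CPM against 37.0 to 151 CPM. Of the genes in the rule, Cnmd, which encodes chondromodulin, an inhibitor of vessel growth, averaged 3426 ± 474 CPM (SD, n = 5). Matn3, a matrilin of the cartilage matrix, averaged 3058 ± 539 CPM, and Scrg1 719.9 ± 205 CPM (SD, n = 5).

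Clec3a did not set these cells apart from chondrocytes with 3 or more Ihh UMIs, which the rule had put aside. There Clec3a read 119.5, 151, 183, 89.0 and 169 CPM in the same order of libraries, above the Epyc and Clec3a cells in the 3 controls and below them in both knockout-labelled libraries. Its mean log2 ratio in the 4 libraries with at least 10 cells of both kinds was 0.05 ± 0.25 (SD, n = 4). Epyc read 73.3, 299, 52.4, 107 and 195 CPM in the Ihh cells, below the Epyc and Clec3a cells in each library. The Ihh cells were not chosen on either gene, so part of the Epyc difference is fixed by the choice.

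**Figure D1:**
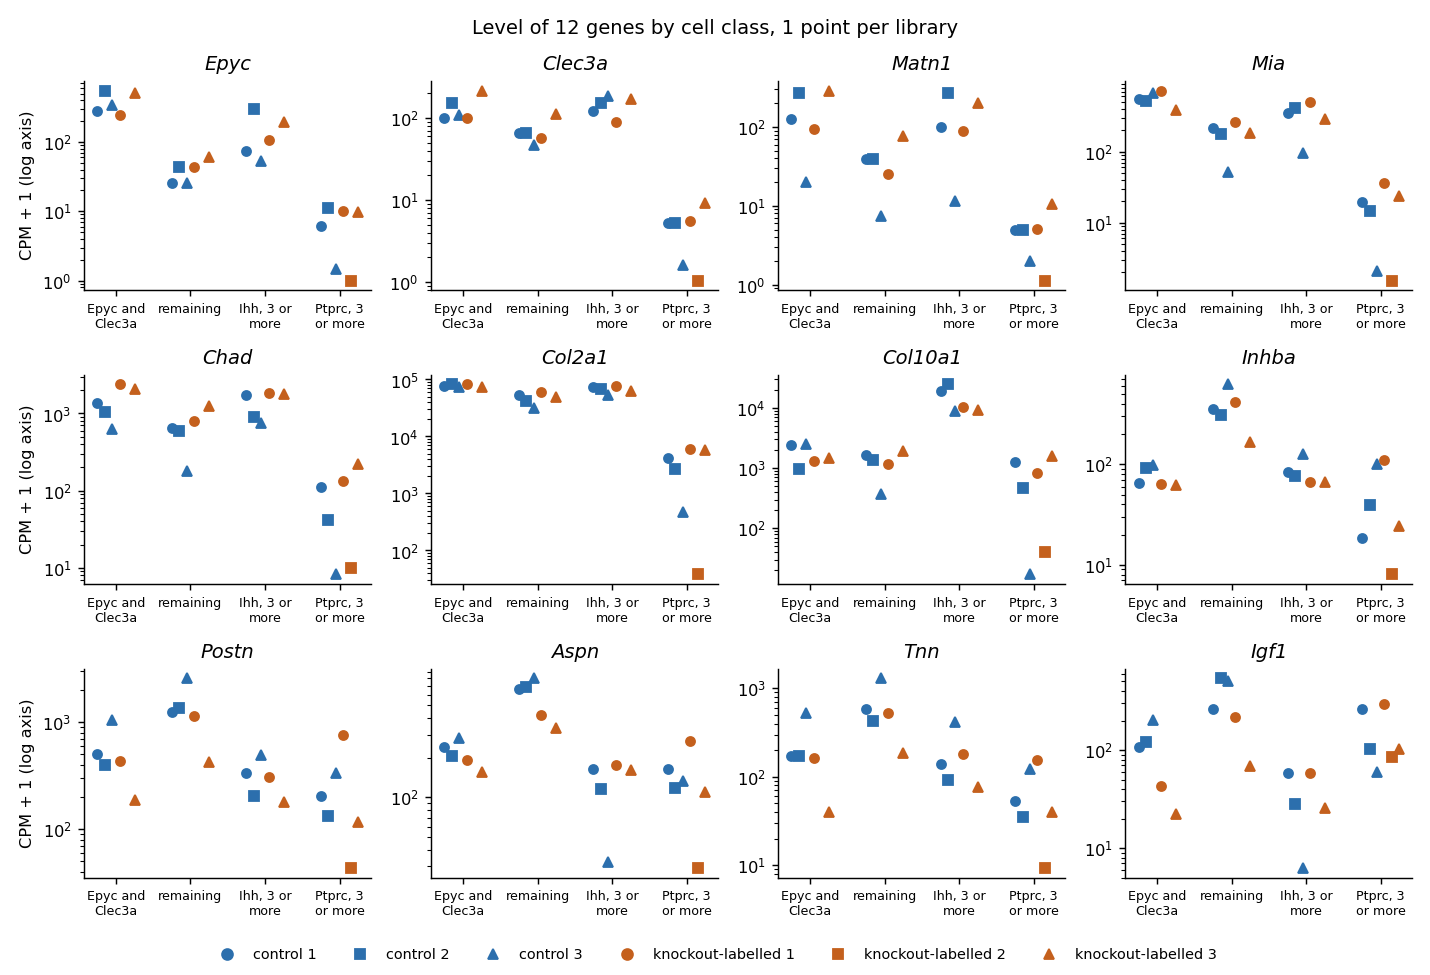
CPM plus 1 on a log axis for 12 genes in 4 classes of cells, 1 point per library and class. Epyc, on which the cells were chosen, separates them from the remaining chondrocytes. Clec3a, also a gene of the rule, reaches like levels in the cells with 3 or more Ihh UMIs.

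Within the class, cells differed in which gene put them there. At least 1 Epyc UMI was found in 59, 167, 9, 35 and 101 cells of the 5 libraries, of 67, 191, 12, 41 and 113, and at least 1 Clec3a UMI in 54, 150, 5, 33 and 92. Both genes were found in 46, 126, 2, 27 and 80 cells, and Epyc outnumbered Clec3a in 68.7% to 78.0% of the cells of a library. Depth differed too, with a median of 47458, 19814, 7009.5, 47179 and 22492 UMIs per cell. After each cell was thinned to 5000 UMIs, which left none out, Epyc was seen in 56.7%, 79.1%, 75%, 53.7% and 77.0% of the cells. It was seen in 6.37% to 14.8% of the remaining chondrocytes and in 0.105% to 3.70% of the blood cells, whose median depth was between 8917 and 18053 UMIs and whose unthinned share was 0.419% to 7.72%. The libraries stood in the same order by this share as by CPM.

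Cells with more Epyc than Clec3a and cells with at least as much Clec3a differed in Cnmd and Ucma, which are genes of the gate, in most libraries. Cnmd read 3639, 3787, 3008, 3297 and 4432 CPM in the former and 2416, 2826, 3927, 2065 and 3549 CPM in the latter, control libraries first. It was higher where Epyc led in 4 of 5 libraries, as was Ucma, a secreted protein of immature cartilage. Prg4, which encodes the joint lubricant lubricin, read 3.51, 3.43, 26.5, 15.9 and 5.83 CPM in the former and 8.73, 28.8, 0, 121 and 16.3 CPM in the latter, and was higher where Epyc did not lead in 4 of 5 libraries. Control replicate 3 was the exception for all 3 genes, with 3 cells in the smaller set. Sfrp5, a gene of the rule, read 27.6, 9.05, 53.0, 34.9 and 83.4 CPM where Epyc led. In the other cells it read 21.3, 7.48, 0, 8.44 and 43.4 CPM, lower in each library. Cartilage genes outside the rule took no one direction: Col2a1 was higher where Epyc led in 3 of 5 libraries, and Acan in 2 of 5. These are descriptions within cells chosen on Epyc and Clec3a.

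Cells lay close to the limits of the class on both sides. Of the 424 cells, 68 led by a single UMI, and in their pooled UMIs Epyc read 136 CPM. The 107 cells with equal sums, which the rule left out, read 70.7 CPM, and the 132 cells 1 UMI further out read 57.5 CPM. Clec3a read 108, 72.4 and 61.4 CPM in these 3 sets. The sets are defined by the lead, which counts both genes, so a fall across them follows from the rule and tests nothing. At the Ihh limit, Col10a1, the collagen of hypertrophic cartilage, read 2626 CPM in 49 cells with 2 Ihh UMIs and 5737 CPM in 29 cells with 3. At the cartilage limit, 9 cells just inside read 30.0 CPM of Epyc and 18 just outside 167 CPM. At the depth limit, 9 cells just inside read 647 CPM and 11 just outside 364 CPM.

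**Figure D2:**
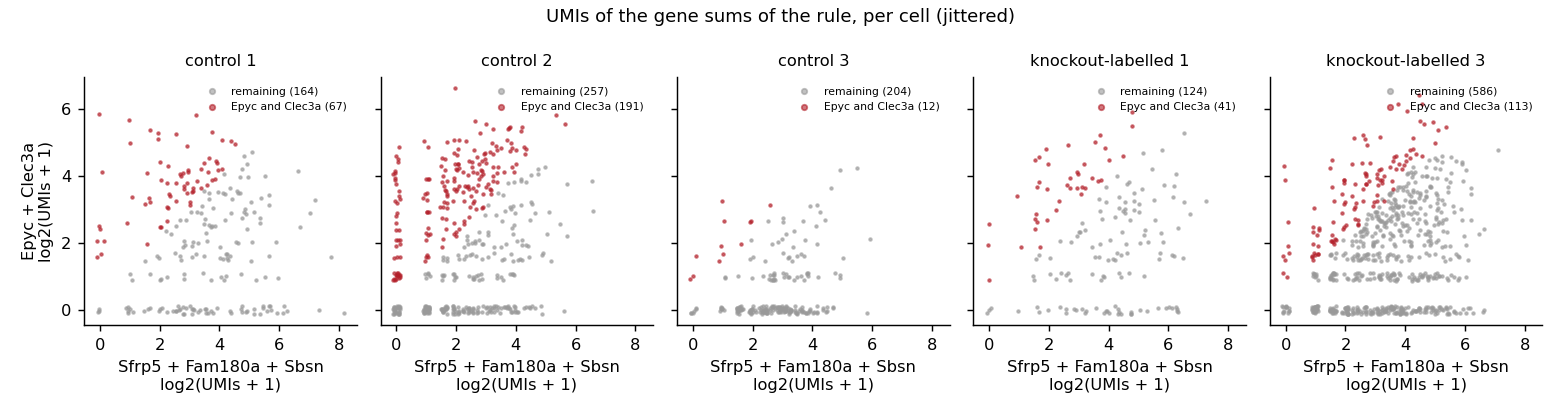
UMIs of Epyc plus Clec3a against UMIs of Sfrp5 plus Fam180a plus Sbsn in each gated chondrocyte, as log2(UMIs + 1), in the 5 libraries that held any. No gap separates the 424 Epyc and Clec3a cells from the 1335 remaining chondrocytes along the line of equal sums.

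Against the remaining chondrocytes, the Epyc and Clec3a cells had more of a few cartilage matrix genes and less of several genes of fibrous matrix. A gene was called where the log2 ratio of (CPM + 5) was at least 1, or at most -1, in all 5 libraries, among 5999 genes with a mean of at least 20 CPM in either class. By this rule 3 genes were higher (0.05% of those tested) and 12 were lower (0.2%). The cells were chosen on genes of the same transcriptome, so no test was made. Beside Epyc itself (mean log2 ratio 3.13 ± 0.48, SD, n = 5), the higher genes were Matn1 and Mia. Beside Sbsn, a gene of the rule (-2.81 ± 0.57), the lower genes were Inhba, Pamr1, Tnn, Igf1, Abi3bp, Postn, Aspn, Tppp3, Ssc5d, Itgbl1 and Crip1. The other genes of the rule's comparison were not called: Clec3a had 0.92 ± 0.24, Sfrp5 -1.96 ± 0.94 and Fam180a -1.07 ± 0.30.

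Matn1, which encodes the cartilage matrix protein matrilin 1, read 127, 270.4, 19.3, 92.2 and 290.0 CPM in the Epyc and Clec3a cells and 38.1, 38.3, 6.42, 24.4 and 75.2 CPM in the remaining chondrocytes, control libraries first. Its mean log2 ratio was 1.80 ± 0.57, and the ranges overlapped because control replicate 3 was low in both classes. The 19.3 CPM of that library, which had the fewest Epyc and Clec3a cells, rest on very few UMIs, and so does the call. Mia, a small protein secreted by chondrocytes, read 559, 514, 667, 725 and 391 CPM against 217, 179, 49.9, 262 and 181 CPM. Its mean log2 ratio was 1.80 ± 1.03, the classes did not overlap, and control replicate 3 gave the largest ratio. Chad, which encodes chondroadherin, a matrix protein that binds cells, fell short of the limit with 1.20 ± 0.46, as did Car8, a relative of the carbonic anhydrases, with 1.33 ± 0.48. Both were chosen after their values were seen, and both were higher in 5 of 5 libraries.

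Inhba, which encodes a subunit of activin A, read 64.1, 91.0, 96.6, 63.4 and 61.6 CPM in the Epyc and Clec3a cells and 358, 306, 624, 415 and 165 CPM in the remaining chondrocytes, a mean log2 ratio of -2.14 ± 0.58. The classes did not overlap. Postn, which encodes periostin, a protein of fibrous matrix and periosteum, read 505, 396, 1044, 430.0 and 188 CPM against 1252, 1349, 2585, 1133 and 419.7 CPM, a mean log2 ratio of -1.38 ± 0.23. Here the ranges overlapped, with knockout-labelled replicate 3 the lowest in both classes. Igf1, a growth factor of cartilage and bone, read 106, 121, 203, 42.4 and 21.2 CPM against 263, 539.7, 510.2, 218 and 67.2 CPM, a mean log2 ratio of -1.68 ± 0.46. Tnn, which encodes tenascin W, had a mean log2 ratio of -1.62 ± 0.34, Aspn, which encodes the proteoglycan asporin, -1.37 ± 0.28, and Abi3bp, a matrix protein, -2.07 ± 0.55. For Pamr1, Tppp3, Ssc5d, Itgbl1 and Crip1 the mean lay between -1.73 (Pamr1) and -1.15 (Crip1).

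By list, and against the remaining chondrocytes, cartilage matrix genes leaned towards the Epyc and Clec3a cells and fibrous genes away from them. The median log2 ratio of all 5999 genes was -0.11, which is the level to read the lists against. All 8 cartilage collagens had a mean ratio above 0 (median 0.61), and none was called. Of 20 genes of the aggrecan complex and cartilage matrix, 15 were above 0 (median 0.34) and Matn1 and Mia were called. The list holds Ucma, Cnmd, Matn3 and Scrg1, which the rule used, as the proteoglycan list holds Epyc and the lectin list Clec3a. Acan, the aggrecan core protein, read 5886 to 7470.4 CPM in the Epyc and Clec3a cells and 4517 to 7991 CPM in the remaining ones. Of 11 small leucine-rich proteoglycans, 4 were above 0 (median -0.36), with Epyc called higher and Aspn lower. Of 17 fibroblast and tendon genes, 1 was above 0 (median -0.88), and Postn and Aspn were called lower. Col1a1, the main collagen of bone and tendon, read 4632, 3805, 12621, 9639.8 and 6248 CPM against 10366, 13611, 24337, 13741 and 9651 CPM. Of 16 resting, early and surface cartilage genes, 3 were above 0 (median -0.74), and Sbsn and Abi3bp were called lower. This list holds Sfrp5, Fam180a, Sbsn and Ucma, which the rule used.

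Single genes of these lists show the size of the lean. Col9a1, a chain of type IX collagen that coats the fibrils of type II collagen, read 6399.8, 5784, 6601, 6696 and 4519.9 CPM against 4472, 2838, 2728, 4779.7 and 2994 CPM in the remaining chondrocytes, a mean log2 ratio of 0.78 ± 0.35 (SD, n = 5). Col11a1, a chain of type XI collagen within the same fibrils, read 18061, 14068, 16332, 18991 and 11825 CPM against 14389, 8092, 8789, 14586 and 7928 CPM, a mean log2 ratio of 0.60 ± 0.25. Both were higher in 5 of 5 libraries by less than 2-fold in most. Snorc, a small membrane proteoglycan of cartilage, read 4831, 6152, 5518, 5271 and 9408 CPM against 3291, 2729, 1878, 3423 and 5862 CPM, a mean log2 ratio of 0.92 ± 0.43. It was higher in 5 of 5 libraries too. Hapln1, the link protein that ties aggrecan to hyaluronan, had a mean log2 ratio of 0.54 ± 0.39 and Comp, a protein that links collagens, 0.21 ± 0.20. Of the other small leucine-rich proteoglycans, Bgn, which encodes biglycan, read 2498, 2322, 2861, 2997 and 2878 CPM against 3642, 4095, 4255, 3773 and 3611 CPM, a mean log2 ratio of -0.52 ± 0.20, and Dcn, which encodes decorin, had -0.50 ± 0.27. Both were lower in 5 of 5 libraries, opposite to Epyc. Of the factors that drive cartilage genes, Sox9 had a mean log2 ratio of 0.03 ± 0.20, Sox5 -0.37 ± 0.83 and Sox6 -0.33 ± 0.33. For Sox9 and Sox5 the SD was above the difference, and for Sox6 it was about as large.

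Other lists lay on both sides of the level of all genes. Of 34 growth factor and WNT signals, 9 were above 0 (median -0.30) and Igf1 was called lower. Of 13 osteoblast and osteocyte genes, 9 were above 0 (median 0.17) and Tnn was called lower. No gene of the lists that follow was called. The median log2 ratio was 0.67 for 2 genes of the C-type lectin tetranectin family, 0.17 for 22 hypertrophic chondrocyte genes, -0.03 for 18 chondrocyte transcription factors, -0.42 for 9 hedgehog and PTHrP genes and -0.59 for 16 matrix proteases and inhibitors. It was -0.00407 for 24 genes of sulfation and glycosaminoglycan synthesis, -0.03 for 33 of collagen folding and secretion, -0.03 for 19 of the unfolded protein response, -0.28 for 25 of glycolysis and hypoxia and -0.08 for 16 of oxidative phosphorylation. The lectin median rests on 2 genes, 1 of them Clec3a of the rule. The median was -0.15 for 3 genes of S phase, -0.07 for 7 of G2 and M phase, -0.21 for 12 mechanosensing and YAP target genes, -0.34 for 17 senescence and apoptosis genes, -0.10 for 12 genes that the study follows, -0.23 for 10 inflammatory stromal genes and 0.09 for 2 genes that overlap ribosomal RNA.

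**Figure D3:**
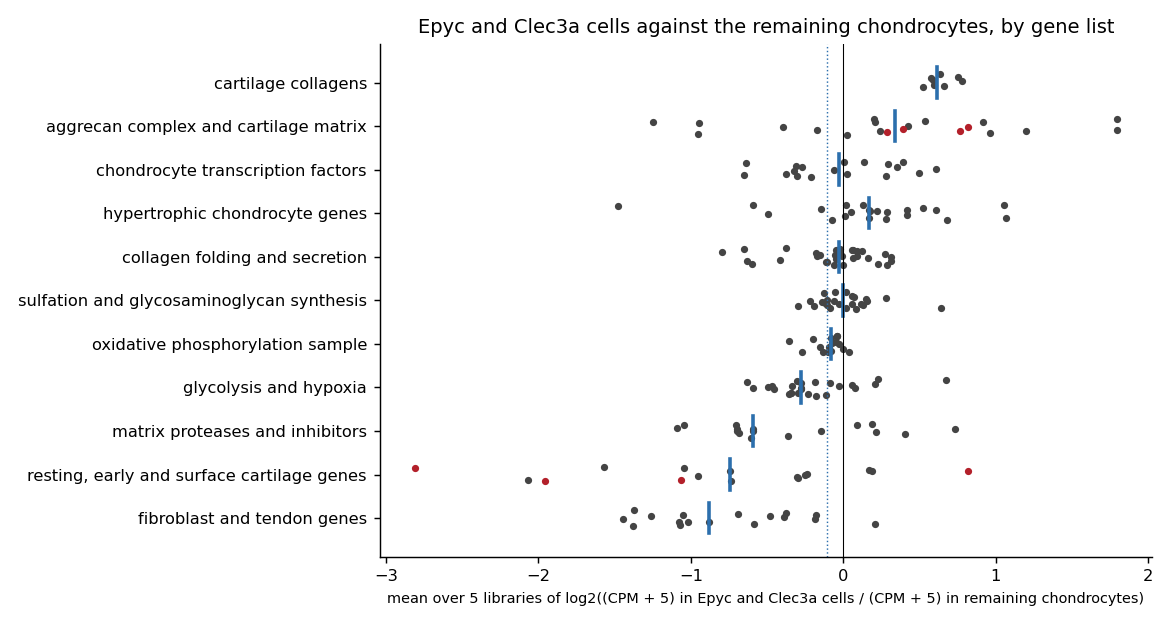
Mean over 5 libraries of the log2 ratio of (CPM + 5) in Epyc and Clec3a cells to that in the remaining chondrocytes, 1 point per gene, for 11 lists. Red points are genes of the rule, blue bars list medians and the dotted line the median of all genes (-0.11), and all 8 collagens lie above 0 while 1 of the 17 fibroblast and tendon genes does.

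Against the chondrocytes with 3 or more Ihh UMIs, the Epyc and Clec3a cells had less of the hypertrophic genes. In the 4 libraries with at least 10 cells of both classes, 5 of 5764 genes were higher by at least 2-fold in every library (0.0867%) and 40 were lower (0.694%). Ihh divided the classes, so these too are descriptions. Col10a1 read 2423, 964, 1332 and 1476 CPM in control replicates 1 and 2 and knockout-labelled replicates 1 and 3, against 19258, 24542, 10123 and 9101 CPM in the Ihh cells, a mean log2 ratio of -3.30 ± 0.92 (SD, n = 4). In the blood cells of those libraries Col10a1 read 1278, 464, 839 and 1568 CPM, a measure of free RNA that was below the level in the Epyc and Clec3a cells in 3 of these 4 libraries and above it in knockout-labelled replicate 3. Of 24 hypertrophic chondrocyte genes, 3 had a mean ratio above 0 (median -0.96, against 0.02 for all genes) and 5 were called lower.

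Also lower than in the Ihh cells were Bmp2, a bone morphogenetic protein (mean log2 ratio -2.49 ± 0.52), Aldh1a3, an enzyme of retinoic acid synthesis (-3.76 ± 1.21), and Cst3, which encodes the protease inhibitor cystatin C (-1.82 ± 0.37). The 5 higher genes were Chil1, which encodes a chitinase-like protein of cartilage (2.53 ± 0.64), the imprinted RNA H19 (1.60 ± 0.27), the iron exporter Slc40a1 (1.59 ± 0.32), Car8 (1.51 ± 0.41) and Mgp (1.73 ± 0.73). Mgp encodes matrix Gla protein, an inhibitor of mineralisation, and read 4066 to 5006 CPM in the Ihh cells of all 5 libraries, while the Epyc and Clec3a cells read 26591, 17634, 4552, 12272 and 8994 CPM. In control replicate 3, which this comparison left out for its 8 Ihh cells, Mgp was not higher. Bmp2, Aldh1a3, Cst3 and the 5 higher genes were named after their values were seen. Matn1 and Mia were not among the 5. Of 15 fibroblast and tendon genes, 11 had a mean ratio above 0 (median 0.25), and none was called. The lean away from fibrous genes was thus seen against the remaining chondrocytes and not against the Ihh cells. The lean towards cartilage matrix genes was smaller against the Ihh cells. Of 8 cartilage collagens, 6 had a mean ratio above 0 (median 0.14, against 0.02 for all genes) and 1 was called lower. Of 19 genes of the aggrecan complex and cartilage matrix, 13 were above 0 (median 0.18) and 1 was called higher.

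The share of Epyc and Clec3a cells among gated chondrocytes varied more between libraries than between genotype labels. It was 29.0% (67 of 231, 95% Wilson interval 23.5% to 35.2%), 42.6% (191 of 448, 38.1% to 47.3%) and 5.56% (12 of 216, 3.21% to 9.46%) in the controls. It was 24.8% (41 of 165, 18.9% to 32.0%) and 16.2% (113 of 699, 13.6% to 19.1%) in the knockout-labelled libraries. The groups overlapped, with means of 25.7% ± 18.8 (SD, n = 3) and 20.5% ± 6.14 (SD, n = 2). The two-sided exact permutation p was 0.80, and 3 against 2 libraries cannot go below 0.10. Without control replicate 2 the difference turned from -5.22 to 3.23 percentage points. Both replicate 1 libraries had been processed with Cell Ranger 6.1.1, and both replicate 3 libraries had a gene list of 55357 IDs. Within replicate 1 the share was 29.0% in the control and 24.8% in the knockout-labelled library, and within replicate 3 it was 5.56% and 16.2%, so the direction differed between these pairs.

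Among all barcodes of the depth gate the share was 3.27%, 3.66% and 0.220% in the controls and 2.69%, 0% and 2.10% in the knockout-labelled libraries. The means were 2.38% ± 1.88 and 1.60% ± 1.42 (SD, n = 3 each), with a two-sided exact permutation p of 0.50, and 3 against 3 libraries cannot go below 0.10. Knockout-labelled replicate 2 held no barcode past the cartilage gate, with or without Ihh, and whether it sampled the same tissue as the others cannot be told from the labels, so its 0% may not be a share of like material. Without it the difference turned from -0.785 to 0.0146 percentage points. Intervals and the limit for a count of 0 cover counting error only.

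**Figure D4:**
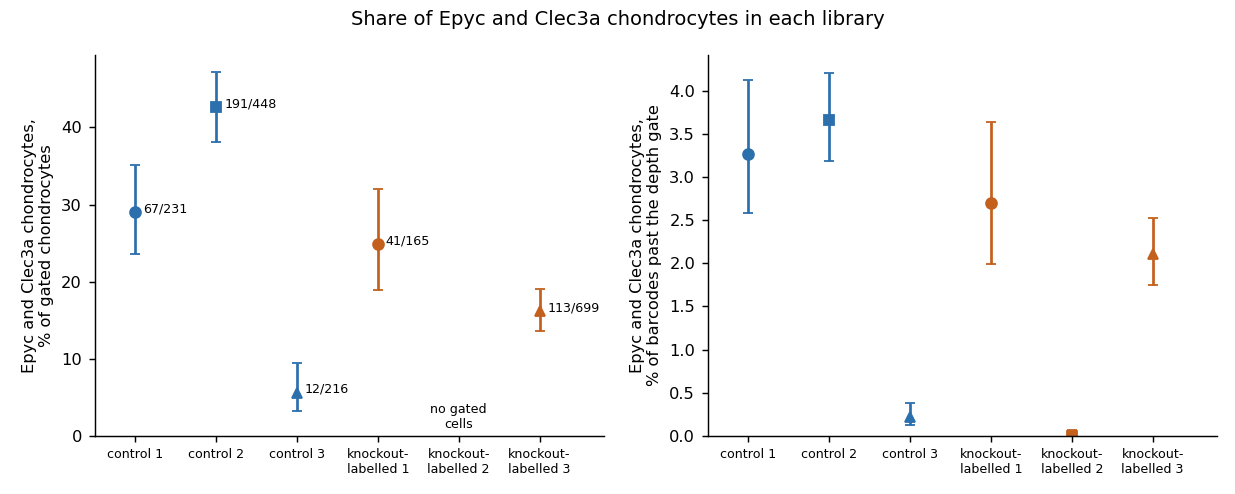
Share of Epyc and Clec3a cells in each library, in percent of gated chondrocytes and of all barcodes of the depth gate, with 95% Wilson intervals. Among gated chondrocytes control replicate 3 (5.56%) lies below both knockout-labelled libraries that held any, and control replicates 1 and 2 lie above them.

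Piezo1, the gene the study names for deletion, was not lower in the knockout-labelled cells. It read 43.0, 38.4 and 38.7 CPM in the controls and 99.5 and 52.6 CPM in the knockout-labelled libraries. The groups did not overlap, with the knockout-labelled libraries above the controls by 1.00 on the log2 scale (SE 0.36, edgeR quasi-likelihood test, unadjusted p = 0.0110, adjusted p = 1.00). Here and below SE is the fold change over the root of the test's F. In the remaining chondrocytes Piezo1 read 56.4, 41.7 and 45.7 CPM against 123 and 46.2 CPM, so knockout-labelled replicate 1 was high in both classes. A 3′ library counts transcripts of the locus whether or not the floxed exons are present, so this level does not test the deletion, and libraries are named by their labels throughout.

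Few genes differed by genotype label in these cells. Over 10969 genes tested with edgeR, 1 was higher in the knockout-labelled cells (0.00912%) and 3 were lower (0.0273%) at an adjusted p under 0.05, and 306 had an unadjusted p under 0.05. Cxcl14, a chemokine, was higher: it read 1.98, 0.966 and 0 CPM against 17.8 and 14.3 CPM, a log2 fold change of 3.57 (SE 0.57, edgeR adjusted p = 0.0125). Cenpf, a kinetochore protein of dividing cells, was lower: it read 45.3, 65.9 and 29.0 CPM against 5.76 and 4.89 CPM, a log2 fold change of -3.19 (SE 0.44, edgeR adjusted p = 0.00376). The other 2 genes were Igkc and Igha, constant chains of immunoglobulins. The groups did not overlap for any of the 4 genes, as for 13.5% of all genes tested. In blood cells Cxcl14 read 15.3, 3.65 and 18.2 CPM in the controls and 66.5, 7.07 and 15.6 CPM in the 3 knockout-labelled libraries, above its level in the Epyc and Clec3a cells in each of the 5 libraries that held them. The part of free RNA in the call was not tested.

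The number of calls changed with the libraries included. Without control replicate 3, the library of 12 cells, edgeR called 0 genes higher and 0 lower (300 with an unadjusted p under 0.05), and each of the 4 genes lost its call, as Igha also did without control replicate 2. Their log2 fold changes hardly moved without control replicate 3: 3.57 became 3.55 for Cxcl14, -3.19 became -3.30 for Cenpf, -5.39 became -5.50 for Igkc and -4.64 became -4.70 for Igha. Without knockout-labelled replicate 3, the library with Xist, each of the 4 genes was called, with log2 fold changes of 3.64 for Cxcl14, -3.18 for Cenpf, -8.73 for Igkc and -7.97 for Igha (edgeR adjusted p at most 7.99e-04). The knockout-labelled library that was left held 0 UMIs of Igkc and Igha, so their fitted values there depend on the prior count and are no measure of size. Without knockout-labelled replicate 1 edgeR called 69 higher and 55 lower, and without knockout-labelled replicate 3 it called 35 and 32. Without control replicate 1 it called 6 and 16, and without control replicate 2 it called 13 and 3. DESeq2 called 0 higher and 1 lower (94 with an unadjusted p under 0.05).

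Within the pairs that shared processing, the 4 genes had the direction of the fit. The log2 ratio of (CPM + 5), knockout-labelled over control, was 1.71 and 1.95 for Cxcl14, -2.22 and -1.78 for Cenpf, -2.06 and -1.33 for Igkc and -1.76 and -1.33 for Igha in replicates 1 and 3. In control replicate 3 Igkc and Igha were 1 UMI each, Cenpf 3 and Cxcl14 0, so the replicate 3 values rest on 0 to 3 counts on the control side. For Piezo1 the ratio was 1.12 and 0.40.

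Immunoglobulin transcripts differed in the same direction in the blood cells of these libraries. Igkc read 15.9, 31.6 and 9.66 CPM against 0 and 0.816 CPM in the Epyc and Clec3a cells, a log2 fold change of -5.39 (SE 0.76, edgeR adjusted p = 0.00376). The controls held 180 UMIs and the knockout-labelled libraries 2, a ratio of 54.0 (95% exact interval 14.7 to 449). This interval and the one for Igha below pool the UMIs of each group. They cover counting error only and not the spread between libraries. In blood cells Igkc read 881, 789 and 446 CPM in the controls and 3.61, 45.0 and 1.16 CPM in the 3 knockout-labelled libraries. Igha held 102 against 2 UMIs, a ratio of 30.6 (8.26 to 256), with a log2 fold change of -4.64 (SE 0.80, edgeR adjusted p = 0.0267). In blood cells Igha read 239, 189 and 144 CPM in the controls and 0.622, 8.68 and 0.179 CPM in the 3 knockout-labelled libraries. Plasma cells make these chains, and the part of their free RNA in both calls was not tested.

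Genes of G2 and M phase, which drive chromosome segregation, leaned lower in the knockout-labelled cells. Of 22 tested, Cenpf passed the adjusted threshold, 21 had a negative log2 fold change (median -1.99, against 0.03 for all genes), and 19 were lower at an unadjusted p under 0.05, where 1.39% of all genes were. Ube2c, an enzyme of mitotic exit, read 32.7, 53.1 and 29.0 CPM against 5.24 and 8.97 CPM, a log2 fold change of -2.40 (SE 0.44, edgeR adjusted p = 0.0526), and Mki67, which encodes the proliferation marker Ki-67, 34.1, 65.4 and 0 CPM against 18.9 and 8.97 CPM, a log2 fold change of -1.61 (SE 0.50, edgeR adjusted p = 0.815). The groups overlapped for Mki67, which was at 0 in control replicate 3, and not for Ube2c. The list summed to 376, 669.8 and 319 CPM in the controls and 149 and 143 CPM in the knockout-labelled libraries, and in the remaining chondrocytes to 199, 727 and 554 CPM in the controls and 136 and 244 CPM in the knockout-labelled libraries, where the groups overlapped. Gene by gene the lean was not the same in both pairs that shared processing. Within replicate 1, 20 of the 22 genes were lower in the knockout-labelled library, and within replicate 3, 11 were lower and 11 higher. Of the 24 genes of the list, 10 were at 0 in the 12 cells of control replicate 3.

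In 4 of the 5 libraries most of these UMIs sat in few cells. In 22 of the 424 cells the list took 1000 CPM or more, a limit chosen after the values were seen. They were 2 of 67, 14 of 191 and 1 of 12 cells in the controls and 1 of 41 and 4 of 113 in the knockout-labelled libraries, or 2.99%, 7.33% and 8.33% against 2.44% and 3.54%, and these shares overlapped. The 22 cells held 77.8%, 89.9% and 87.9% of the list's UMIs in the controls and 52.1% and 37.3% in the knockout-labelled libraries. For Cenpf they held 131 of 137, 265 of 273 and 3 of 3 UMIs in the controls and 2 of 11 and 6 of 12 in the knockout-labelled libraries, so the level of the class in the controls was that of a few cells. These cells were picked by the list itself, so the level left without them tests nothing. Of 19 genes of S phase, which copy DNA, none had an unadjusted p under 0.05 (median log2 fold change 0.26).

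**Figure D5:**
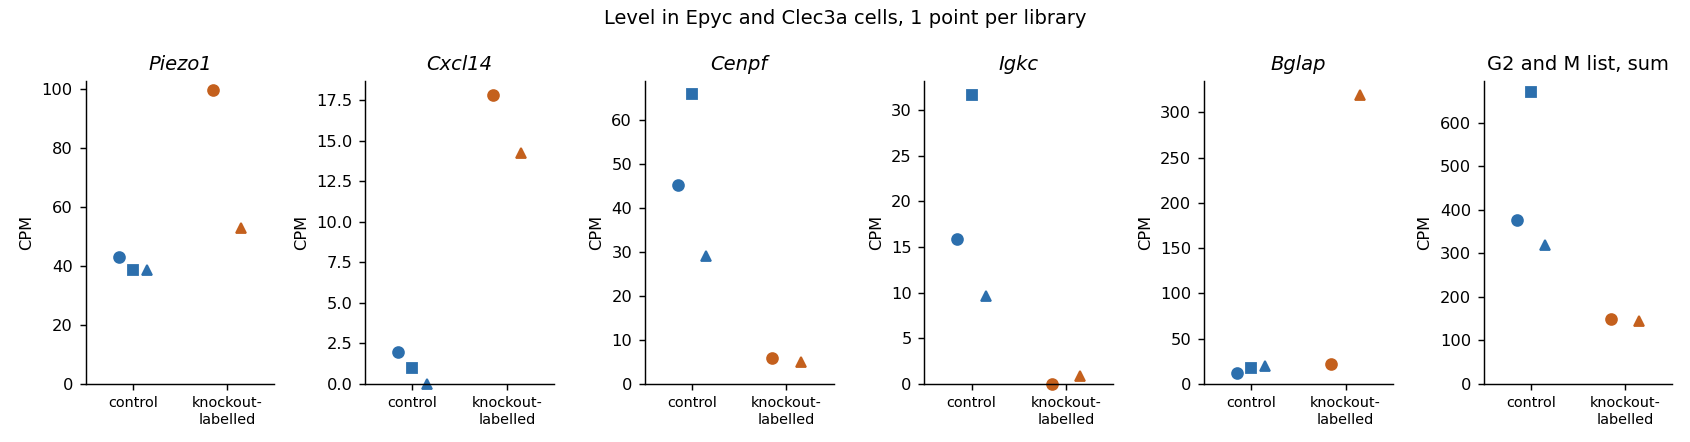
CPM in the Epyc and Clec3a cells for 5 genes and for the summed G2 and M list, 1 point per library, by genotype label. The 2 groups do not overlap in any of the 6 plots, as for 13.5% of all genes tested, and Cxcl14, Cenpf and Igkc are shown because they were called. For Bglap knockout-labelled replicate 3 stands apart, and knockout-labelled replicate 1 lies close to the controls.

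No gene that the study follows passed the test in these cells. The study reported higher ApoE in hypertrophic chondrocytes, from single-cell RNA and from staining of callus. The rule here put aside chondrocytes with 3 or more Ihh UMIs, so that result was not tested. Apoe, which encodes a lipid carrier, read 90.3, 90.8 and 135 CPM against 116 and 170.5 CPM, a log2 fold change of 0.68 (SE 0.38, edgeR adjusted p = 1.00), and the groups overlapped. Blood cells of these libraries read 2803 to 6081 CPM of Apoe. Bglap, which encodes the bone protein osteocalcin, read 12.2, 17.4 and 19.3 CPM against 21.5 and 319 CPM, a log2 fold change of 3.67 (SE 0.71, edgeR adjusted p = 0.0796) that 1 library set. In blood cells Bglap read 8.86, 73.5 and 41.7 CPM in the controls and 1.24, 441 and 70.4 CPM in the 3 knockout-labelled libraries. Col10a1 had a log2 fold change of -0.31 (SE 0.44), Spp1, which encodes osteopontin, -0.31 (SE 0.61), Sp7, the osteoblast factor osterix, 0.24 (SE 0.35), and Runx2, a factor of bone and hypertrophic cartilage, -0.07 (SE 0.38). Of genes of senescence and the nuclear lamina, Cdkn2a had -0.51 (SE 0.50), Trp53 -0.08 (SE 0.35) and Lmna 0.09 (SE 0.37), and of genes of cell death Bax had -0.11 (SE 0.43) and Fas -0.15 (SE 0.42). For these 9 genes the SE was above the size of the change or close to it.

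No cartilage gene passed either. None of 8 cartilage collagens, 24 genes of the aggrecan complex and cartilage matrix, 11 small leucine-rich proteoglycans, 2 genes of the C-type lectin family or 21 chondrocyte transcription factors was called. Their median log2 fold changes were 0.14, 0.03, -0.10, 0.26 and 0.10. At an unadjusted edgeR p under 0.05, 2 genes of the aggrecan list and 2 proteoglycans were higher. Of the transcription factors 1 was higher and 1 lower at that p. Chad read 1352, 1049 and 628 CPM against 2382 and 2064 CPM, and the groups did not overlap (log2 fold change 1.25 (SE 0.42, edgeR adjusted p = 0.942)). Col2a1 had 0.14 (SE 0.44). Epyc had 0.08 (SE 0.45) and Clec3a 0.52 (SE 0.42), but the rule chose the cells on both, so these 2 values test nothing. The aggrecan, proteoglycan and lectin lists also hold genes of the rule. Of 25 hypertrophic chondrocyte genes none was called (median 0.43), and 6, all higher, had an unadjusted p under 0.05, where 1.4% of all genes tested were higher at that p. Of 16 osteoblast and osteocyte genes none was called (median 0.43), and 6 higher and 1 lower had one. The hypertrophic list summed to 12679.6, 8632 and 37989.9 CPM in the controls and 22495 and 17821 CPM in the knockout-labelled libraries and the osteoblast list to 22937, 19156 and 59241 CPM in the controls and 41688 and 29921 CPM in the knockout-labelled libraries. For both lists the groups overlapped and control replicate 3 was the highest library. Within replicate 1, 15 hypertrophic and 12 osteoblast genes were higher in the knockout-labelled library, and within replicate 3, 11 and 5 were. Of 47 growth factor and WNT signals, Cxcl14 was called (median -0.02), and 6 higher and 4 lower had an unadjusted edgeR p under 0.05. Of all genes tested, 1.4% were higher and 1.39% lower at that p. Igf1 read 106, 121 and 203 CPM against 42.4 and 21.2 CPM, a log2 fold change of -1.96 (SE 0.41, edgeR adjusted p = 0.111), with no overlap.

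The rest of the lists had no call by genotype label. The median log2 fold change was 0.05 for 13 hedgehog and PTHrP genes, -0.02 for 20 resting, early and surface cartilage genes, -0.13 for 29 of sulfation and glycosaminoglycan synthesis, -0.07 for 33 of collagen folding and secretion and 0.01 for 21 of the unfolded protein response. It was 0.06 for 30 of glycolysis and hypoxia, 0.14 for 16 of oxidative phosphorylation, -0.11 for 16 mechanosensing and YAP target genes, 0.09 for 23 senescence and apoptosis genes and -0.08 for 13 genes that the study follows. It was 0.05 for 17 matrix proteases and inhibitors, -0.19 for 19 fibroblast and tendon genes and -0.38 for 2 genes that overlap ribosomal RNA. Of 15 inflammatory stromal genes, 12 had a positive log2 fold change (median 0.37), and 6, all higher, had an unadjusted p under 0.05, beside 1.4% of all genes. The list summed to 666, 713 and 947 CPM in the controls and 1585 and 547 CPM in the knockout-labelled libraries, so the groups overlapped and knockout-labelled replicate 1 was the high library. Within replicate 1, 14 of the 15 genes were higher in the knockout-labelled library, and within replicate 3, 6 were. Cxcl5, a chemokine that draws neutrophils, read 0.331, 0 and 9.66 CPM against 68.6 and 0 CPM in the Epyc and Clec3a cells and 0.681, 0.373 and 30.2 CPM against 165 and 0 CPM in the blood cells.

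Markers of other cell types were present at low levels and differed between libraries. Macrophage markers summed to 247, 342, 299.6, 346 and 553 CPM, control libraries first, with Apoe the most abundant, and 0, 0, 5, 0 and 0 of 13 were at 0. Of 11 tested by genotype label, 10 had a positive log2 fold change (median 0.90), 4, all higher, had an unadjusted p under 0.05 (1.4% of all genes), and none was called. Within replicate 1, 10 of the 11 genes were higher in the knockout-labelled library, and within replicate 3, 9 were. In blood cells of the same 5 libraries the list summed to 19492 to 24256 CPM, far above the level in the Epyc and Clec3a cells. Neutrophil markers summed to 163, 958, 532, 275 and 1299 CPM (S100a9 the most abundant, 1, 0, 3, 0 and 0 of 11 at 0, 8 tested, median 0.46). Osteoclast markers summed to 139, 133, 261, 119 and 299 CPM (Ctsk, 1, 0, 3, 2 and 0 of 7 at 0, 5 tested, median 0.55). Knockout-labelled replicate 3 was the highest library for macrophage, neutrophil and osteoclast markers.

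Endothelial markers summed to 51.2, 71.7, 19.3, 31.9 and 91.8 CPM (Egfl7 the most abundant, 0, 0, 8, 0 and 0 of 10 at 0, 9 tested, median 0.27). Pericyte and smooth muscle markers summed to 59.2, 139, 58.0, 113 and 65.3 CPM (Acta2, 2, 0, 6, 1 and 0 of 8 at 0, 4 tested, median -0.32). Erythroid markers summed to 0.661, 19.6, 126, 6.28 and 13.1 CPM (Hbb-bs, 4, 2, 4, 3 and 1 of 6 at 0, 1 tested, log2 fold change -0.83). None was called, and the rule itself limited Ptprc and Cdh5. Against the remaining chondrocytes the median log2 ratio was -0.35 for 7 macrophage, -0.18 for 6 neutrophil, -0.61 for 3 osteoclast, -0.56 for 3 pericyte and -1.29 for 4 erythroid markers, with none called, and no endothelial marker reached 20 CPM. The part of such RNA in the genotype differences was not tested.

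For 18 genes the genotype difference in the Epyc and Clec3a cells was another than in the remaining chondrocytes of the same libraries. An interaction term with the library as a block, tested with edgeR over 12661 genes, was positive for 15 (0.118%) and negative for 3 (0.0237%). Cytl1, a small secreted protein of cartilage, had the smallest p. It read 122, 50.9 and 19.3 CPM against 66.5 and 71.8 CPM in the Epyc and Clec3a cells, where the groups overlapped, and 50.2, 29.3 and 12.8 CPM against 111 and 116 CPM in the remaining chondrocytes, where the groups did not overlap, and its interaction was -1.74 (SE 0.24, edgeR adjusted p = 8.71e-05). Vcan, which encodes the proteoglycan versican, read 15.9, 9.66 and 19.3 CPM against 50.8 and 5.71 CPM in the former and 72.2, 36.9 and 85.8 CPM against 52.7 and 14.96 CPM in the latter, an interaction of 1.65 (SE 0.32, edgeR adjusted p = 0.0100). The groups overlapped in both classes for Vcan, and without knockout-labelled replicate 1, the library where it was high, the interaction was 0.70 (edgeR adjusted p = 1.00). Cytl1 was called whichever control library was left out, and its interaction was -1.73 and -1.76 without knockout-labelled replicates 1 and 3. The Cytl1 call was lost at a lead of 3 UMIs (-1.73) and after thinning to 5000 UMIs (-0.91). With Ptprc and Cdh5 at 0 and at most 50000 UMIs it was lost too (-0.89). Piezo1 had an interaction of 0.21 (SE 0.24, edgeR adjusted p = 1.00). Without control replicate 3, edgeR called 1 gene (617 with an unadjusted p under 0.05).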

How the data were processed

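Single-cell RNA libraries of callus (3 control, 3 knockout-labelled) were read. The study states different numbers of mice for this experiment in different places, and the labels tie no library to a mouse. The deposited counts are UMIs per gene and barcode that the authors made with Cell Ranger (6.1.1 for replicate 1 of both groups and 6.1.2 for the others, per the file headers) on GRCm38, per the submitters' processing notes. They were not normalized. The study's methods also name Seurat. Gene lists differed between libraries, and the 52081 shared gene IDs were used, which held at least 97.8% of each library's UMIs.

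Barcodes were classed by the rule given in the text. No doublet caller was run. Ptprc, Cdh5 and a limit of 50000 UMIs served as an alternative. UMIs were summed per library and class, since cells of 1 library are not replicates, and a class needed at least 10 cells, which 5 of the 6 libraries reached. CPM are UMIs per 1000000 of that sum. Genotype labels were compared with edgeR 4.0.16 in R 4.3.3 (filterByExpr, TMM, quasi-likelihood test, two-sided, Benjamini-Hochberg over all genes tested), and shares with exact permutation tests. DESeq2 1.42.0 was an alternative. Ratios between classes used (CPM + 5).

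The 30 gene lists (520 genes, 510 in the files) and the cells themselves were chosen with earlier results of these data known. Named genes were those of the lists and of the study, up to 15 called genes in each direction between classes (by the largest lowest-library ratio, genes of the rule aside), and up to 10 called genes in each direction by genotype label whose groups did not overlap. Other settings tried were UMI limits of 2000 and 10000, a cartilage share of 0.5%, a lead of 3 UMIs, cells thinned to 5000 UMIs, each library left out, no filter on low counts, RLE size factors, and a replicate block. Proteins, and promoters without a RefSeq entry, were not used here.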

Additional observations from a re-analysis of the deposited data

Results flagged for a closer look

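The 18 genes of the interaction are given here because the test of the difference itself, between the genotype difference in the Epyc and Clec3a cells and that in the remaining chondrocytes, passed an edgeR adjusted p under 0.05. Values in parentheses are that difference on the log2 scale. Among genes of bone and cartilage matrix it was positive for Bglap (2.48), Bglap2 (2.05), Vcan (1.65) and Thbs4 (1.32) and negative for Cytl1 (-1.74). Bglap and Bglap2 were high in 1 library, knockout-labelled replicate 3, in both classes. Without that library the difference for Bglap rose from 2.48 to 4.16. Bglap2 read 5.95, 7.48 and 29.0 CPM against 7.86 and 122 CPM in the Epyc and Clec3a cells and 12.6, 7.10 and 1.89 CPM against 1.37 and 40.7 CPM in the remaining ones.

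It was also positive for Nos2 (4.01), Saa3 (2.04), Mmp3 (3.34) and Adam23 (3.55). Nos2 read 3.64, 2.41 and 0 CPM against 50.3 and 0 CPM, Saa3 1.98, 1.93 and 184 CPM against 334 and 0.408 CPM and Mmp3 0.661, 1.69 and 19.3 CPM against 40.3 and 0 CPM in the Epyc and Clec3a cells, so knockout-labelled replicate 1 was the highest library for each. In blood cells Saa3 read 5.62, 129.8 and 611 CPM against 2943 and 23.9 CPM, and the part of free RNA was not tested.

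Of the rest it was positive for Sfrp2 (1.67), Fabp5 (1.31), Slc7a2 (1.35), Kctd12 (1.16) and Apod (1.23), and negative for R3hdml (-1.37) and Cenpf (-1.87). Fabp5, a fatty acid carrier, read 99.2, 185 and 251 CPM against 125 and 111 CPM in the Epyc and Clec3a cells and 353, 510.4 and 576 CPM against 116 and 179.7 CPM in the remaining ones, where the groups did not overlap. Itih5 (5.66) and Chodl (4.99) rested on knockout-labelled replicate 3, with 18 and 32 UMIs in the Epyc and Clec3a cells.

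Most of these calls depended on single libraries. Without control replicate 3 only Cytl1 was called. Without knockout-labelled replicate 1 the edgeR call was lost for Nos2 (-2.93), Mmp3 (-1.06), R3hdml (-1.28), Sfrp2 (1.51), Vcan (0.70), Thbs4 (1.28), Fabp5 (0.91), Saa3 (1.44), Kctd12 (1.00) and Apod (0.92), and without knockout-labelled replicate 3 for R3hdml (-1.56), Sfrp2 (1.88), Thbs4 (1.31), Bglap2 (2.82), Slc7a2 (1.18), Itih5 (1.10), Chodl (4.01), Kctd12 (1.29) and Cenpf (-1.33). Without control replicate 1 it was lost for Bglap2 (1.26) and Cenpf (-1.44), and without control replicate 2 for Mmp3 (1.47), Adam23 (2.54), Thbs4 (0.78), Slc7a2 (0.79) and Apod (1.03).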

How the results depend on the processing

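Piezo1 kept its direction and stayed short of the threshold under all 17 alternatives (log2 fold change 0.59 to 1.32, lowest edgeR adjusted p 0.0700). The share of Epyc and Clec3a cells among gated chondrocytes turned from -5.22 to 3.23 percentage points without control replicate 2, and ranged from -15.3 to 3.23 when 1 library was left out. With the replicate block, which keeps numbers 1 and 3, it was also 3.23. The share of the depth gate turned from -0.785 to 0.0146 without knockout-labelled replicate 2 (-1.87 to 0.0146 over libraries left out). With a replicate block in the edgeR fit, 16 genes were higher and 8 lower by genotype label. Same-numbered libraries deviated together with r = 0.267 (replicate 1) and 0.0865 (replicate 3) over genes, and control replicate 2 with knockout-labelled replicate 3 by 0.121. With 2 knockout-labelled libraries their deviations mirror each other, so these values are not independent. Each such pair shared its Cell Ranger version or gene list, but the labels do not say what a number marks, and 2 pairs cannot settle it.

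Against 1 higher and 3 lower by genotype label, 2 and 6 were called at 2000 UMIs per barcode. No gene was called in either direction (0 and 0) at 10000 UMIs, at a cartilage share of 0.5%, at a lead of 3 UMIs, with Ptprc and Cdh5 at 0 and at most 50000 UMIs, or after thinning. Counts were 12 and 5 without replicate 3 of both groups, 36 and 24 with no filter on low counts, 4 and 8 without rRNA and mitochondrial genes, and 0 and 1 with DESeq2. Leaving out 1 library gave 0 to 69 higher and 0 to 55 lower. The settings of 10000 UMIs, 0.5% and a lead of 3 left control replicate 3 under 10 cells and so out of the fit.

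The 18 interaction calls became 10 at 2000 UMIs, 5 at 10000 UMIs, 0 at a lead of 3, 49 with Ptprc and Cdh5 at 0 and at most 50000 UMIs, 5 after thinning, 8 without replicate 3 of both groups, 45 with no filter, 10 with the Ihh cells among the remaining, and 1 to 66 when 1 library was left out. Single genes turned: Bglap to -0.17 and Vcan to -0.19 at 0.5%, Nos2 to -2.93 and Mmp3 to -1.06 without knockout-labelled replicate 1 (up to 4.79 and 3.68 without another library), and Saa3 to -1.85 (edgeR adjusted p = 0.0303) and Bglap2 to -0.39 after thinning. Without the 22 cells rich in the G2 and M list, an alternative chosen after seeing the data, its difference turned from -309 to 15.9 CPM, a change that follows from choosing cells by the list and is no check of it. The 3 genes higher than in the remaining chondrocytes became 1 with the Ihh cells among the remaining. The 12 lower became 5 at 0.5%, 6 after thinning, 31 without replicate 3 of both groups and 2 with the Ihh cells among the remaining, and 15 to 19 when 1 library was left out. Beyond settings that tested fewer genes or libraries, the cause was not tested. Knockout-labelled replicate 2 held no such cell, so leaving it out of the gene tests was not run.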
